A study of Mus musculus with 6 samples.

Results

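The genes described here are Hemgn and 9 regulators of the erythroid and megakaryocytic lineages, namely Gata1, Klf1, Tal1, Nfe2, Gfi1b, Zfpm1, Lmo2, Epor and Car2. They were taken by name from a table of 24965 mouse genes, and all 10 were found in it. RNA was sequenced from donor cells sorted as HSPCs (hematopoietic stem and progenitor cells) and recovered from irradiated recipients at 6 h post-BMT (bone marrow transplantation). Donors were WT or Hemgn-/- mice, with 3 libraries per genotype, and the comparison asks what the loss of Hemgn did to the transcripts of these sorted cells. The libraries also held transcripts of other cell types, which are given below. All donors carried CD45.2, and 20000000 of their bone marrow cells were injected into a vein of CD45.1 recipients that had received 9 Gy in fractions of 4.5 Gy. The Hemgn-/- mice were made with zinc finger nucleases on a C57BL/6 background and carry the mutation in the whole body, so that every donor cell, and not HSPCs alone, was mutant. Donors were young adults, and the controls in the study were WT littermates. The sorted cells were CD45.2+Lin-Sca-1+ by the sample labels and also c-Kit+ by the design text and the study's methods. The methods call the libraries biological replicates without saying how many recipients went into each, so p-values measure the spread between these samples.

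Red cells and platelets come from shared megakaryocyte-erythroid progenitors. GATA1 is the zinc finger factor that both lineages need, and FOG1, the product of Zfpm1, is its cofactor. GATA1 works in a complex with the helix-loop-helix factor TAL1 and the adaptor LMO2, KLF1 turns on globin and other red cell genes, GFI1B represses genes in both lineages, and NFE2 is needed for platelet release and globin expression. EPOR is the receptor for erythropoietin, and carbonic anhydrase II, encoded by Car2, is an early erythroid enzyme. Hemogen, the product of Hemgn, is a nuclear protein of blood progenitors and erythroid cells, and its gene is a known target of GATA1.

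The deletion in the Hemgn-/- mice lies in the coding sequence. In the GENCODE M21 annotation of GRCm38, Hemgn spans chr4:46393989-46413506 on the minus strand, and the 2 lost bases, at chr4:46396366-46396367, fall in exon 3 of 4 of transcript ENSMUST00000107764.8. The stretch below, chr4:46396336-46396397, is the reference coding strand read 5′ to 3′, with the lost bases in capitals, and is shown because it bears on what the libraries could count.

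Hemgn, coding strand: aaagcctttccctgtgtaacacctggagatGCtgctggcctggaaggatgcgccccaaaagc

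With these bases gone the reading frame reaches a stop after 306 codons in place of 503, and this new stop stands 470 bases upstream of the end of exon 3, which is not the last exon. A transcript of the mutant allele is still counted as Hemgn, since only 2 of its bases are missing, so the FPKM of Hemgn measures transcript and not whether protein was made. No reads were examined, so the fragments counted in Hemgn-/- libraries were not shown to carry the deletion. FPKM (fragment counts scaled to transcript length and library size) is a level per transcript length, and it allows levels of different genes to be set side by side.

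The WT libraries held Hemgn at 5.64, 2.96 and 4.68 FPKM, and the Hemgn-/- libraries at 0.755, 0.913 and 1.60 FPKM. Each Hemgn-/- library lay below each WT library. The means were 4.43 ± 1.36 and 1.09 ± 0.449 FPKM (SD, n = 3 each), a 4.07-fold lower level in Hemgn-/- libraries. The difference of mean log2(FPKM + 1), Hemgn-/- minus WT, was -1.37 (SE 0.232, 95% interval -1.90 to -0.84), with an adjusted p of 0.0114 from limma across all genes tested. These values rest on 335, 190 and 326 fragments in WT and on 52, 60 and 116 fragments in Hemgn-/- libraries, which were recovered from the FPKM steps. The exact 95% Poisson interval, which covers counting error only, was 1.32 to 1.92 FPKM for the highest Hemgn-/- library and 2.55 to 3.41 FPKM for the lowest WT library. The transcript was thus detected in all Hemgn-/- libraries at a level clear of 0. Without the third WT library the difference was -1.32 and the adjusted p 0.0503, and with all genes above 0 in the test the adjusted p was 0.0613, both above the threshold of 0.05.

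Hemgn was the 1 gene of the 10 that passed the test. Of the 9 that reached 1 FPKM in at least 1 library and were tested, 1 was called lower and none higher (adjusted p under 0.05), where 2.09% of the 13739 genes tested were called lower and 4.37% higher. The other 8 had differences from -0.19 to 0.13 with a median of 0.00, beside a median of 0.09 over all genes tested, and 4 lay above 0 and 4 below. In 1 of the 10 genes, again Hemgn, the libraries of the genotypes did not overlap, against 27.4% of all genes tested (8.18% lower and 19.2% higher), and with the study's rule of an unadjusted p under 0.05 and a 1.5-fold change the count was also 1, against 6.83% of all genes (2.74% lower and 4.1% higher). An exact permutation test on 3 against 3 libraries cannot go below p = 0.1, so the test over all genes is the one given for single genes.

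**Figure D1:**
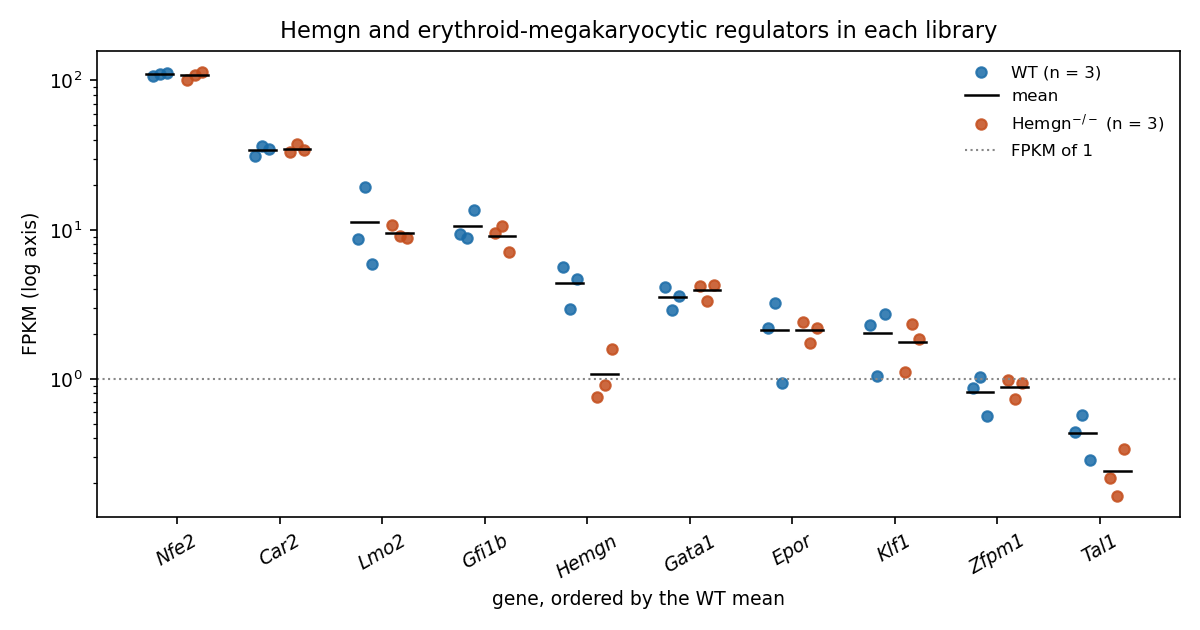
FPKM (log axis) of the 10 genes in each of 3 WT (blue) and 3 Hemgn-/- libraries (orange), ordered by the WT mean, with black bars for group means and a dotted line at 1 FPKM. Hemgn is the gene whose orange points all lie below its blue points, and Nfe2, at 101 to 114 FPKM, is the highest of the 10 in every library.

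Gata1, the factor upstream of Hemgn, did not pass the test. It was at 4.11, 2.88 and 3.58 FPKM in WT and 4.17, 3.34 and 4.27 FPKM in Hemgn-/- libraries, and the groups overlapped. The difference of mean log2(FPKM + 1) was 0.13 (SE 0.151, adjusted p = 0.671, limma), and its 95% interval, -0.22 to 0.47, leaves out a fall of the size seen for Hemgn. Without the second WT library the difference of Gata1 was 0.021. In WT libraries Hemgn and Gata1 were at about the same level per length, whereas in each Hemgn-/- library Gata1 was above Hemgn. The log2 ratio of Hemgn to Gata1 (both FPKM + 1) was 0.38, 0.03 and 0.31 in WT and -1.56, -1.18 and -1.02 in Hemgn-/- libraries. This ratio was chosen after the values were seen, and its exact p of 0.1 is the smallest that this design allows. Zfpm1, whose product FOG1 binds GATA1, was low, at 0.868, 1.03 and 0.566 FPKM in WT and 0.978, 0.731 and 0.938 FPKM in Hemgn-/- libraries. Only the second WT library exceeded 1 FPKM, which is how Zfpm1 came to be tested, and its difference was 0.05 (95% interval -0.42 to 0.52, adjusted p = 0.911, limma).

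The other partners of GATA1 on DNA were at very different levels. Lmo2 was at 8.62, 19.4 and 5.91 FPKM in WT and at 10.7, 9.03 and 8.76 FPKM in Hemgn-/- libraries. The second WT library had the highest value and the third the lowest of all 6, so that WT libraries spread by 63.0% of their mean and Hemgn-/- libraries by 11.2%. The difference was -0.08 (95% interval -0.84 to 0.68, adjusted p = 0.919, limma), an interval that does not leave out changes of 1.5-fold either way, and without the second WT library it turned to 0.36 (adjusted p = 0.291). Tal1 was the lowest of the 10 genes, at 0.444, 0.571 and 0.288 FPKM in WT and 0.216, 0.166 and 0.340 FPKM in Hemgn-/- libraries, or 35 to 64 and 19 to 43 fragments. No library reached 1 FPKM, so Tal1 was left out of the main test. In the fit that took all genes above 0 its difference was -0.21 (95% interval -0.48 to 0.06, adjusted p = 0.505, limma), and the third Hemgn-/- library lay above the third WT library. For Lmo2 and Tal1 a change of moderate size was not detectable at this spread and depth.

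Klf1, Gfi1b and Nfe2, factors that act on red cell and platelet genes, also overlapped between the genotypes. Klf1 was at 2.29, 1.05 and 2.74 FPKM in WT and 1.12, 2.35 and 1.85 FPKM in Hemgn-/- libraries. Its lowest value, in the second WT library, and its highest value, in the third, were both WT, and the difference was -0.10 (95% interval -0.71 to 0.50, adjusted p = 0.856, limma). Gfi1b was at 9.30, 8.80 and 13.5 FPKM in WT and 9.52, 10.6 and 7.05 FPKM in Hemgn-/- libraries. The third library of each genotype held its extremes, and the difference was -0.19 (95% interval -0.62 to 0.23, adjusted p = 0.594, limma), which was -0.014 without the third WT library and -0.039 without the third Hemgn-/- library. Nfe2 was measured most tightly, at 107, 111 and 112 FPKM in WT and 101, 109 and 114 FPKM in Hemgn-/- libraries. Its difference was -0.03 with a 95% interval of -0.19 to 0.13 (adjusted p = 0.849, limma), so a change of 1.5-fold in Nfe2 lay outside that interval.

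The receptor and the enzyme gave like results. Epor was at 2.19, 3.24 and 0.943 FPKM in WT and 2.40, 1.75 and 2.21 FPKM in Hemgn-/- libraries. Its highest and lowest values were both in WT libraries, and both group means were 2.12 FPKM. The difference was 0.06 (95% interval -0.55 to 0.68, adjusted p = 0.922, limma), and it was -0.24 without the third WT library. Car2 was at 31.2, 36.7 and 34.6 FPKM in WT and 33.0, 37.6 and 34.4 FPKM in Hemgn-/- libraries. Those 6 values differed little, the difference was 0.04, and its 95% interval of -0.17 to 0.24 left out a 1.5-fold change (adjusted p = 0.854, limma). The signs of Nfe2, Zfpm1, Epor and Car2 turned with another scaling of the libraries, so they carry no direction.

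**Figure D2:**
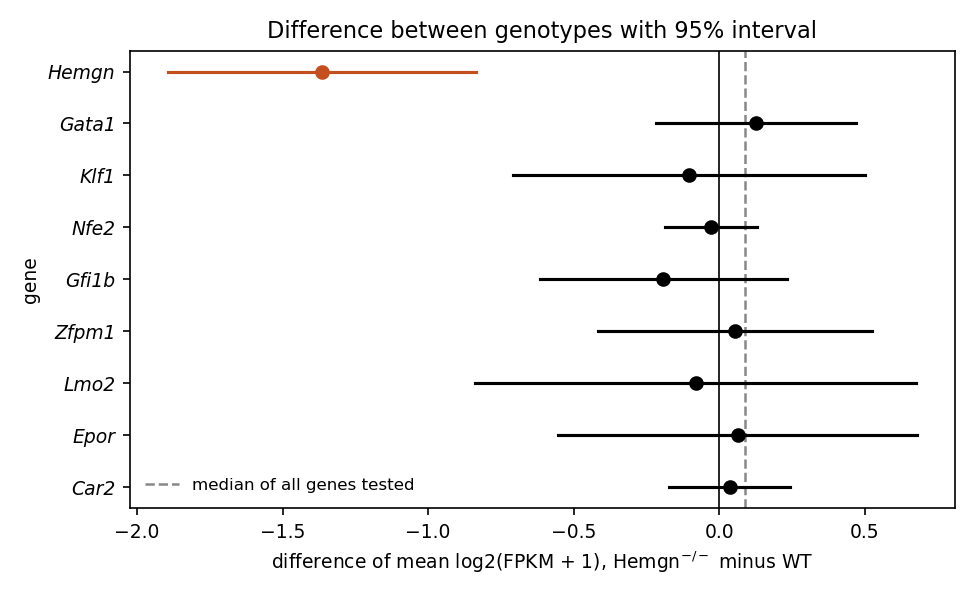
Difference of mean log2(FPKM + 1), Hemgn-/- minus WT, of the 9 genes tested (points) with 95% intervals from limma (bars), where orange marks an adjusted p under 0.05 and the dashed line the median of all genes tested. The interval of Hemgn, -1.90 to -0.84, lies below 0, and the other 8 intervals include 0, with those of Nfe2 and Car2 the narrowest.

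In WT libraries the order of levels per length was Nfe2 (mean 110 FPKM), Car2 (34.1), Lmo2 (11.3), Gfi1b (10.5), Hemgn (4.43), Gata1 (3.52), Epor (2.12), Klf1 (2.02), Zfpm1 (0.820) and Tal1 (0.434). Nfe2, Car2 and the pair Lmo2 and Gfi1b were set apart by ranges that did not overlap between neighbours, other than within that pair. Hemgn, Gata1 and Epor each overlapped with the next gene, as did Zfpm1 with Tal1, while Klf1 and Zfpm1 did not overlap. In Hemgn-/- libraries the other 9 kept this order, while Hemgn, at 1.09 FPKM, moved from rank 5 to rank 8, where it overlapped with Klf1 above and Zfpm1 below it.

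RefSeq promoter windows of GRCm38.p6, 250 bases before to 50 after a start site, were at hand for 7 of the 10 genes, with 2 windows for Tal1, and none for Nfe2, Lmo2 and Car2. The GATA motif was searched on both strands in 4 spellings. These were AGATAA and its variant TGATAA, together with AGATAG and its variant TGATAG. A match was found for 5 of the 7 genes, Hemgn, Klf1, Tal1, Gfi1b and Epor, and in 29.8% of all 32851 windows. The sites are shown since GATA1 is the factor that these genes have in common, with the motif in capitals, 30 bases each on the strand of the gene. They lie at chr4:46404179-46404208 (minus) and chr4:46404138-46404167 (minus) for Hemgn, chr8:84901890-84901919 (plus) for Klf1, chr4:115056209-115056238 (plus) for Tal1, chr2:28622085-28622114 (minus) for Gfi1b and chr9:21963613-21963642 (minus) for Epor.

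Hemgn, 13 bases before the start: acctgtgcagtgTGATAAagaaagtggaat
Hemgn, 28 bases after the start: tgtggtctaaccAGATAAaacttttaggcg
Klf1, 80 bases before the start: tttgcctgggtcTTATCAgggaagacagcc
Tal1, 205 bases before the start: ctatagagtcttTTATCTttgagcaattcc
Gfi1b, 120 bases before the start: tctgtgaagtttTGATAAgcaaatgtggct
Epor, 54 bases before the start: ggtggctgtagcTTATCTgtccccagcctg

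Hemgn was the gene with 2 matches within its window. Among the 5 genes with a match, Hemgn fell, Klf1, Gfi1b and Epor did not pass the test, and Tal1 was too low for it. Gata1 and Zfpm1 had none of these letters in their windows and did not pass the test either. A match of letters does not show that a factor was bound, and no binding was measured here. An E-box, CANNTG, where TAL1 complexes can bind, was found for 6 of the 7 genes and in 72.3% of all windows. A CACC box, CCNCNCCC, the kind of sequence that KLF1 reads, was also found for 6 of the 7 and in 49.5% of all windows, with Klf1 itself the gene without one.

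Of 16 partners and cofactors of GATA1 and TAL1, 1 was called lower and 0 higher, with a median difference of -0.03. Over all genes tested, 2.09% were called lower and 4.37% higher. Cbfa2t2, a corepressor of the ETO family, was at 5.15, 6.14 and 7.82 FPKM in WT and 2.99, 3.07 and 2.37 FPKM in Hemgn-/- libraries. All its Hemgn-/- values lay below the WT values, with a difference of -0.94 (SE 0.161, adjusted p = 0.0117, limma), which passed the test in 13 of 15 alternatives and missed it without the third Hemgn-/- library (adjusted p = 0.0537). Its relative Cbfa2t3, a known member of the TAL1 complex, overlapped between the genotypes at 4.36 to 5.85 and 5.54 to 6.58 FPKM. Lyl1, the close relative of TAL1, was at 68.8 to 75.6 FPKM in WT and 70.1 to 84.4 FPKM in Hemgn-/- libraries, far above Tal1 per length, and did not pass the test (adjusted p = 0.477). Tcf3, which encodes the E proteins that pair with TAL1, had a difference of -0.49 (adjusted p = 0.195), and the corepressor gene Rcor1 had one of -0.40 (adjusted p = 0.132), both without overlap between groups but not called. The second WT library had the highest Tcf3 level, and without it the difference of Tcf3 was -0.23. Hdac1, at 35.6 to 40.2 FPKM over all libraries, had a difference of 0.08.

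None of the 7 partners and relatives of NFE2 passed the test, and their median was 0.25. Their differences were all above 0, the smallest being 0.0052 for Mafg, as were those of 8653 of the 13739 genes tested. Bach1, a repressor of globin and heme genes that competes with NFE2 for small MAF proteins, was at 4.74, 3.59 and 2.84 FPKM in WT and 5.08, 8.48 and 5.86 FPKM in Hemgn-/- libraries. The groups did not overlap, but the difference of 0.65 had an adjusted p of 0.103. Nfe2l1 had 0.46 (adjusted p = 0.0703) and Nfe2l2, the oxidative stress factor NRF2, had 0.25 (adjusted p = 0.121). Nfe2l1 passed the test in 3 of 15 alternatives and Nfe2l2 in 1. Of the small MAF genes, Mafk had a difference of 0.20 and Maff one of 0.32, and neither passed the test.

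Among 13 other transcription factors of these lineages, 12 were tested, 1 was called lower and 0 higher, with a median of -0.11. The share of all genes tested that was called lower was 2.09%. Spi1, which encodes PU.1, the myeloid factor that opposes GATA1, was at 179, 335 and 220 FPKM in WT and 150, 115 and 91.8 FPKM in Hemgn-/- libraries. It had a difference of -1.01 (SE 0.235, adjusted p = 0.0399, limma). The second WT library stood high, the difference without it was -0.76 (adjusted p = 0.0627), and Spi1 passed the test in 9 of 15 alternatives. Bcl11a, the repressor of embryonic globin genes, had 0.46 (adjusted p = 0.0745) and Myb had -0.27 (adjusted p = 0.265). Fli1, the megakaryocyte factor that opposes KLF1, overlapped at 90.5 to 93.4 and 91.1 to 99.1 FPKM.

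Genes downstream of the erythropoietin receptor were among those that rose. Of 15 genes in this list, 13 were tested, 4 were called higher and 0 lower, with a median of 0.29, against 4.37% of all genes called higher. Pim1, a STAT5-induced kinase, was at 46.4, 52.1 and 43.6 FPKM in WT and 159, 159 and 164 FPKM in Hemgn-/- libraries. It had a difference of 1.74 (SE 0.0793, adjusted p = 1.29e-05, limma) and passed the test in each of 15 alternatives. Socs3, a feedback inhibitor, was at 74.3, 67.0 and 64.2 FPKM in WT and 121, 128 and 119 FPKM in Hemgn-/- libraries, a difference of 0.83 (adjusted p = 0.000663). Ptpn6, which encodes the phosphatase SHP-1, had 0.39 (adjusted p = 0.00737), and the kinase gene Lyn had 0.36 (adjusted p = 0.0253), though Lyn passed in only 6 of 15 alternatives. Pim1 and Socs3 are induced by many cytokines besides erythropoietin, and Ptpn6 and Lyn are expressed in most blood cells. Jak2, at 5.59 to 6.02 and 5.01 to 5.74 FPKM, and Bcl2l1, at 49.1 to 51.0 and 47.6 to 48.2 FPKM, did not pass the test, nor did Cish, a classical STAT5 target (difference 0.40, adjusted p = 0.188), or Stat5a (0.41, adjusted p = 0.0957).

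**Figure D3:**
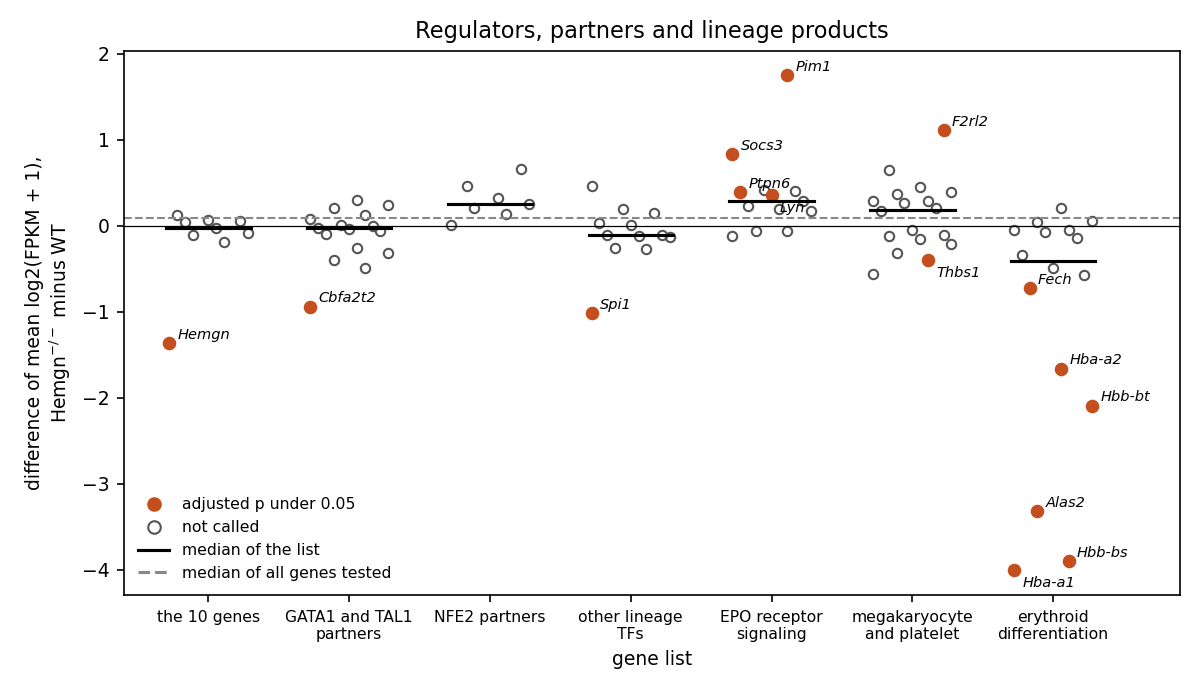
Difference of mean log2(FPKM + 1), Hemgn-/- minus WT, of each tested gene in 7 gene lists, where filled orange points passed an adjusted p under 0.05 (limma), open points did not, bars are list medians and the dashed line is the median of all genes tested. In the transcription factor lists the filled points are Hemgn, Cbfa2t2 and Spi1, and the 4 globin genes and Alas2 lie between -1.66 and -4.01.

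Among the products of red cell differentiation, globin and heme genes fell. Of 30 erythroid differentiation genes, 28 were in the table (Ahsp and Icam4 were not analysed here). Of these, 16 were tested, and 6 were called lower and 0 higher, with a median of -0.41, against 2.09% of all genes called lower. The 6 were Hba-a1, Hba-a2, Hbb-bs and Hbb-bt, which encode hemoglobin chains, Alas2, the erythroid enzyme that starts heme synthesis, and Fech, the enzyme that ends it. Alas2 was at 38.1, 29.3 and 25.9 FPKM in WT and 1.77, 2.85 and 2.00 FPKM in Hemgn-/- libraries, a difference of -3.32 (SE 0.172, adjusted p = 2.78e-05, limma). Fech was at 16.6, 14.8 and 17.3 FPKM in WT and 9.12, 9.63 and 9.36 FPKM in Hemgn-/- libraries, a difference of -0.73 (adjusted p = 0.00408). All 6 genes passed the test in each of 15 alternatives. The globin differences were -4.01 for Hba-a1, -3.90 for Hbb-bs, -2.09 for Hbb-bt and -1.66 for Hba-a2, but the copies within each pair are nearly identical and their reads could be split between them, so the values of single copies are uncertain. The pseudocount of 1 also shrinks the values of the lower copies, and the difference was -4.02 for Hba-a2 and -3.10 for Hbb-bt with a pseudocount of 0.1, and -5.34 and -3.25 with voom. The 10 other tested genes of the list, among them Tfrc, Urod and Car1, had a median of -0.06 and none was called. The 12 genes of the list that were too low for the test encode proteins of the red cell membrane and its skeleton or other surface proteins. In bulk samples fewer cells of a type and less RNA per cell cannot be told apart.

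**Figure D4:**
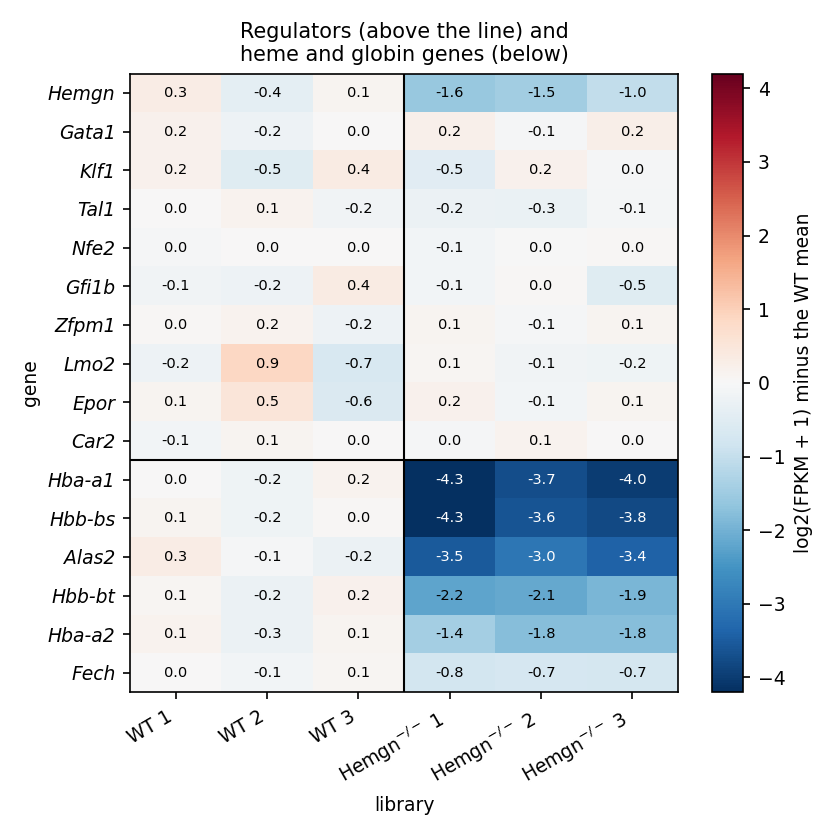
log2(FPKM + 1) of each library minus the WT mean, for the 10 genes (above the line) and the 6 erythroid differentiation genes called lower (below it), with blue for lower and red for higher. The second WT library is high for Lmo2 and Epor, Hemgn is blue in all 3 Hemgn-/- libraries, and the heme and globin genes are blue there while Gata1, Klf1, Nfe2 and Car2 are near white.

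The ratio of product to regulator put both in 1 number per library. The log2 ratio of Alas2 to Gata1 was 2.94, 2.96 and 2.55 in WT and -0.90, -0.17 and -0.81 in Hemgn-/- libraries, a difference of -3.45. For Hba-a1 to Klf1 it was 6.51, 7.01 and 6.46 in WT and 2.80, 2.76 and 2.72 in Hemgn-/- libraries, a difference of -3.90. Both were chosen after the values were seen and restate the fall of Alas2 and Hba-a1, and both had the smallest exact p the design allows, 0.1. Of 7 ratios between a regulator and its relative or partner, 6 are given here. The differences of Gata1 to Gata2 (0.22), Gfi1b to Gfi1 (-0.34), Klf1 to Klf3 (0.0001) and Zfpm1 to Gata1 (-0.07) came with overlapping libraries and exact p from 0.8 to 1. Nfe2 to Nfe2l2 was 1.31, 1.17 and 1.38 in WT and 0.86, 1.04 and 1.12 in Hemgn-/- libraries. Tal1 to Lyl1 was -5.73, -5.49 and -5.76 in WT and -5.87, -6.19 and -5.90 in Hemgn-/- libraries. Tal1 was below the pseudocount of 1 in every library, so the ratio of Tal1 to Lyl1 is compressed. In these 2 ratios the groups did not overlap, with differences of -0.28 and -0.33 and an exact p of 0.1 (two-sided), which was 0.35 after Benjamini-Hochberg adjustment over the 7 pairs.

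**Figure D5:**
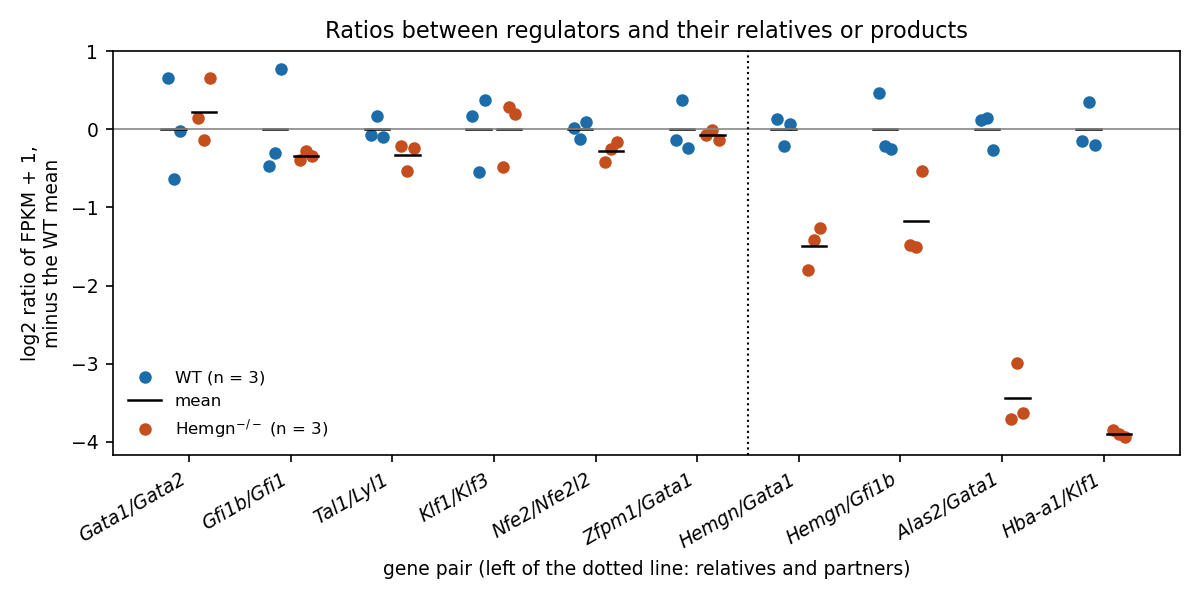
log2 ratio of FPKM + 1 minus the WT mean in each WT (blue) and Hemgn-/- library (orange) for 10 gene pairs, with black bars for group means and, right of the dotted line, the 4 pairs chosen after the values were seen. The ratios of Alas2 to Gata1 and Hba-a1 to Klf1, which carry the fall of Alas2 and Hba-a1, differ between genotypes by -3.45 and -3.90, and among the 6 left of the line the libraries of Nfe2 to Nfe2l2 and Tal1 to Lyl1 do not overlap.

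Of 24 megakaryocyte and platelet genes, 18 were tested, 1 was called lower and 1 higher, with a median of 0.18. The shares over all genes tested were 2.09% lower and 4.37% higher. Thbs1, the matrix protein thrombospondin 1, was at 214, 215 and 201 FPKM in WT and 147, 168 and 161 FPKM in Hemgn-/- libraries (difference -0.40, adjusted p = 0.0125, limma). It passed in 12 of 15 alternatives and missed the test, among others, without the first WT library (adjusted p = 0.057). F2rl2, a thrombin receptor, was at 3.36, 2.14 and 3.76 FPKM in WT and 8.01, 7.65 and 7.44 FPKM in Hemgn-/- libraries (difference 1.11, adjusted p = 0.00619), and passed in each of 15 alternatives. Pf4, a platelet chemokine, overlapped at 3.50 to 4.75 and 2.98 to 3.79 FPKM. P2ry12 had a difference of 0.65 (adjusted p = 0.152), Cavin2 one of -0.56 (adjusted p = 0.283) and Cd9, at 407 to 449 FPKM, one of -0.12 (adjusted p = 0.233). The first Hemgn-/- library stood high for P2ry12 and Cavin2, and without it P2ry12 had a difference of 0.37 and Cavin2 one of -0.92 (adjusted p = 0.0242), the 1 of 15 alternatives in which Cavin2 passed.

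Other cell types left transcripts in these libraries, and some moved with Hemgn. Granulocyte genes were high and the gates' own markers low. The 11 granulocyte precursor and neutrophil genes summed to 72489 to 77983 FPKM in WT and 46206 to 51683 FPKM in Hemgn-/- libraries, or 19.5 to 20.8% and 13.4 to 14.4% of the FPKM total. Of the 11, 6 were called lower, against 2.09% of all genes tested. The 2 at the highest level were Ngp, with a difference of -0.73 (adjusted p = 0.000131), and S100a9, with one of -0.19 (adjusted p = 0.452). Kit was no higher than 7.24 FPKM in any library. Ly6a, which encodes Sca-1, was at 8.27 to 10.2 FPKM in WT and 11.4 to 17.3 FPKM in Hemgn-/- libraries (difference 0.58, adjusted p = 0.0642, limma). Of 9 eosinophil genes 3 were called lower (Epx -2.72, Prg2 -1.99, Prg3 -1.51), while 4 lay above 0, with a list median of -0.12. Of those 4, Ccr3 (0.34) and Alox15 (0.18) were higher in each Hemgn-/- library than in any WT library, as were 19.2% of all genes tested, but were not called. The eosinophil list summed to 282 to 343 FPKM in WT and 83.3 to 99.4 FPKM in Hemgn-/- libraries. Most of that was Prg2, at 233 to 290 and 56.7 to 70.4 FPKM. The erythroid list summed to 536 to 630 and 100 to 121 FPKM. In WT most of that was Hba-a1 (263 to 328 FPKM) and Hbb-bs (151 to 186 FPKM). In Hemgn-/- libraries these 2 genes were at 13.8 to 21.6 and 7.78 to 12.9 FPKM. None of 10 basophil and mast cell genes tested was called in either direction, the highest being Prss34 (280 to 323 FPKM) and Hdc (284 to 318 FPKM). Of 10 HSPC genes tested Cd34 was called higher (0.45, adjusted p = 0.0427) and 0 lower, with a list median of 0.38. In 5 of the 10 each Hemgn-/- library lay above each WT library, against 19.2% of all genes tested. In 1, Kit, each lay below, against 8.18%. The shares of all genes tested that were called were 2.09% lower and 4.37% higher. Of macrophage genes 2 of 10 were called lower and 3 higher, 3 of 7 B cell genes, 2 of 8 T and NK cell genes and 2 of 5 plasmacytoid dendritic cell genes were called higher, and none of 5 endothelial genes was called. The genes with the highest means of these lists were Ly6c2 (difference -0.25) and Cd68 (0.02), Cd79b (0.27) and Cd79a (0.22), Nkg7 (-0.04) and Ncr1 (0.59), Bst2 (0.21) and Siglech (1.15), and Pecam1 (0.42) and Stab2 (-0.55), of which Cd79b, Ncr1 and Siglech were called. No gene of these lists that was in the table was at 0 in all libraries. GATA1, NFE2, GFI1B and LMO2 also work in eosinophils, basophils, mast cells or neutrophils, and the part of any of these cell types in the levels of the 10 genes was not tested.

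By the root mean square difference of log2(FPKM + 1), centred on each gene's own mean over the 6 libraries, the genes nearest to Hemgn out of 11665 with a mean of at least 1 FPKM were Igkv6-23 (0.0948), Ighv5-16 (0.209), Ighv1-26 (0.225), Igkv8-30 (0.230) and Igkv12-44 (0.239). All 5 are immunoglobulin variable segments. Igkv6-23 was at 9.85, 5.82 and 8.31 FPKM in WT and 2.07, 2.80 and 3.38 FPKM in Hemgn-/- libraries, so that it shared with Hemgn the dip in the second WT library and the highest Hemgn-/- value in the third. Fech ranked 93, and Klf1, the nearest of the other regulators that reached that mean, ranked 1758. Lmo2, at rank 10153, was the farthest of them. These distances describe 6 libraries and include the difference between genotypes, so they show likeness of values and nothing more.

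The libraries held 23668015 to 28897360 fragments. The first principal component held 37.2% of the variance and separated the genotypes, and on the second (18.5%) the second WT library stood apart from the other 5. That library had the highest value of 5 of the 10 genes among WT libraries and the lowest of 4. Without it the difference of Hemgn was -1.58 (adjusted p = 0.00831, limma), and Hemgn remained the 1 gene of the 10 that was called. Over all genes, 287 were called lower and 600 higher, and this split moved to 386 and 341 under median-ratio scaling and to 346 and 368 under quantile normalization.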

How the data were processed

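RNA-seq of 6 libraries, 3 WT and 3 Hemgn-/-, was analysed from 1 deposited table of FPKM values per gene. The design text and the study's methods give Smart-Seq2 cDNA and tail vein injection, and the labels another library kit and a retro-orbital route. The submitters' processing notes name GRCm38, Bowtie2 2.2.3, HISAT2 2.1.0, TopHat2 and HTSeq 0.6.0, with no role or order, and the authors deposited FPKM, which removes transcript length and library size. Columns were matched to samples by genotype letter and number. Ensembl identifiers were paired with GENCODE M21 symbols (24921 of 24965 matched). No exon of the 10 genes overlapped one of another annotated gene.

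FPKM was multiplied by GENCODE exon length to recover fragments. The median of the 400 lowest products above 0 in each library was taken as 1 fragment. For 95.4% of 13472 genes with few fragments, all 6 values were whole within 0.02. This gave 23668015 to 28897360 fragments per library, with an exact Poisson interval for single values. Libraries of 1 genotype differed by more than sampling noise (chi-square per gene 17.5 to 35.2), so none was merged.

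The main test was limma 3.58.1 in R 4.3.3 (eBayes with trend, Benjamini-Hochberg) on log2(FPKM + 1) of the 13739 genes that exceeded 1 FPKM in any library. The pseudocount of 1 understates changes of low genes. Leaving out a library repeated that filter on the other 5. The script was tested on simulated data. Ratios were tested by exact two-sided permutation. Motifs were searched in RefSeq promoter windows.

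The 10 genes, the gene lists and the tests were chosen with earlier results of these data known. The rule for named genes took the 10 genes, the 3 largest absolute differences and 2 highest means of each list, both genes of each ratio (1 ratio is not reported here), the 5 genes nearest to Hemgn and the 2 highest means of each marker list. Other genes were named for their role or their call after their values were seen. The Hemgn, Alas2 and Hba-a1 ratios were added after the values were seen. Alternatives were a pseudocount of 0.1, other filters, median-ratio, equal-total and quantile scaling, no trend, a replicate block, voom on recovered fragments and leaving out each library.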

Additional observations from a re-analysis of the deposited data

How the results depend on the processing

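Of 913 values recomputed under an alternative, 820 kept their direction and their side of the threshold (or stayed within 1.5 times for counts). Hemgn was lower under all of its 15 alternatives (log2 difference -2.03 to -1.20, adjusted p 0.00739 to 0.0613, limma). Samples with the same number did not deviate together (correlations -0.04, -0.01 and 0.01), and with the replicate block Hemgn had an adjusted p of 0.018 and all genes 226 lower and 410 higher calls. The difference turned for Nfe2 with equal FPKM totals (0.059), for Zfpm1 with quantile normalization (-0.035), for Epor and Car2 with median-ratio scaling (-0.0049 and -0.064) and quantile normalization (-0.025 and -0.042), and for Hdac1 with both (-0.020 and -0.0011). The cause was not tested. Zfpm1 and Tal1 gave no value where the filter of a fit left them out. For Zfpm1 this was so without the second WT library and with the filter on a mean of at least 1 FPKM, since its mean was 0.851 FPKM.

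With all genes above 0 in the test, 0 members, 0 GATA1 and TAL1 partners and 0 other lineage factors were called lower. Without the trend, 0 other lineage factors and 0 megakaryocyte genes were called lower and 2 EPO receptor genes higher. With equal totals, 2 NFE2 partners, 1 other lineage factor and 2 megakaryocyte genes were called higher, with voom 1 and 1 of the first 2 lists, and with median-ratio scaling 2 megakaryocyte genes lower. The log2 ratio of Klf1 to Klf3 turned to -0.0060 with a pseudocount of 0.1 and to -0.014 with equal totals.

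Leaving out 1 library at a time gave log2 differences of 0.021 to 0.22 for Gata1, -0.30 to -0.014 for Gfi1b, -0.36 to 0.077 for Klf1, -0.067 to 0.019 for Nfe2, -0.050 to 0.11 for Zfpm1, -0.42 to 0.36 for Lmo2, -0.24 to 0.32 for Epor and -0.026 to 0.088 for Car2. Counts called lower ranged from 0 to 1 for members (0 without the third WT library), GATA1 and TAL1 partners and other lineage factors, and from 0 to 2 for megakaryocyte genes, and NFE2 partners called higher from 0 to 1. Ratios ranged from -0.094 to 0.55 for Gata1 to Gata2, -0.57 to 0.049 for Gfi1b to Gfi1, -0.27 to 0.24 for Klf1 to Klf3 and -0.19 to 0.11 for Zfpm1 to Gata1. With 3 libraries per genotype, changes of moderate size in Lmo2, Epor, Klf1, Zfpm1 and Tal1 were not detectable.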
